A study of Homo sapiens with 4 samples.

Results

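MIR3142HG is a long noncoding RNA (lncRNA) gene on chromosome 5 whose transcript hosts 2 microRNAs, miR-3142 and miR-146a. Its members here were the rows of the deposited lncRNA table that carry its name, which were 4 isoforms, MIR3142HG:1 to MIR3142HG:4, of 104786 isoforms listed, or 1 gene of 46902. The gene was chosen by its name after the levels of its summed isoforms in the 4 libraries, which were higher in the subline than in the parent, were known. These values are therefore given as a description, with no test. RNA was sequenced from MDA-MB-231, an established human line of triple-negative breast cancer, and from MDA-MB-231-P3, a subline of it, with 2 libraries of each line and no drug or genetic change named in the labels for either. Per the labels' protocols, the subline was raised in 3 rounds, in each of which cells were injected into the tail vein of mice, and tumour cells that had grown in the lung were recovered and expanded in culture. Both lines were grown as adherent cultures before RNA was taken. Nothing in the labels states that libraries of 1 line were separate cultures, so the spread behind each p-value is that between these libraries and may be technical.

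MicroRNAs are cut from hairpins in longer primary transcripts, and a host gene is the gene that makes such a transcript. MiR-146a is known as a brake on inflammatory signalling. Its gene is switched on by the transcription factor NF-κB, and the microRNA represses IRAK1 and TRAF6. These proteins carry signals from Toll-like and interleukin-1 receptors to NF-κB. The title of the series names an NF-κB and IL8 axis, which is why the level of this host is of interest in the subline. The libraries were made from the mRNA fraction, so they report on the host transcript, and mature miR-146a and NF-κB activity were not analysed here.

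The mature microRNAs of the locus are shown because the seed, bases 2 to 8 from the 5′ end and in capitals here, decides which mRNAs a microRNA pairs with. The sequences are those of RefSeq (GRCh38.p14), and miR-146b, which comes from a separate gene on chromosome 10, stands beside them for comparison.
hsa-miR-146a-5p: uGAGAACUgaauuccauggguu
hsa-miR-146b-5p: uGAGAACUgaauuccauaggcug
hsa-miR-146a-3p: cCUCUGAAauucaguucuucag
hsa-miR-3142: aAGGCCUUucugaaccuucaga
The seed GAGAACU was shared by miR-146a-5p, miR-146b-5p and miR-7153-5p among the mature microRNAs of the RefSeq table. The seed of miR-146a-3p was found in no other entry of that table, and that of miR-3142 was shared with miR-1245b-5p. The hairpin of miR-146a is given next, with both mature arms in capitals, because it lies in an exon of the host.
MIR146A hairpin: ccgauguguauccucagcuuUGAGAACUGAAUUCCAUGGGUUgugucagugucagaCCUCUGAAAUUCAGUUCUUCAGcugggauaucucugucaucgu

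MIR3142HG (ENSG00000253522) spans 159865601 to 159914433 on the plus strand of chromosome 5 (GRCh37, the sequence of hg19, GENCODE release 44 lifted over). The annotation gives it 2 transcripts of 2 exons each. MIR3142HG-201 starts at 159895275 with an exon of 173 bases, and MIR3142HG-202 starts at 159865601 with an exon of 76 bases, 29.7 kb further upstream. Both end in the same exon of 2128 bases, from 159912306 to 159914433. The miR-146a hairpin matched the genome once on this chromosome, at chr5:159912359-159912457, inside this shared exon and 53 bases from its start. The miR-3142 hairpin is annotated at chr5:159901409-159901490, in the intron, 6.13 kb from the start of MIR3142HG-201. The sources used here do not tie the 4 deposited isoform numbers to these transcripts, so which isoform starts at which exon was not determined.

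**Figure D1:**
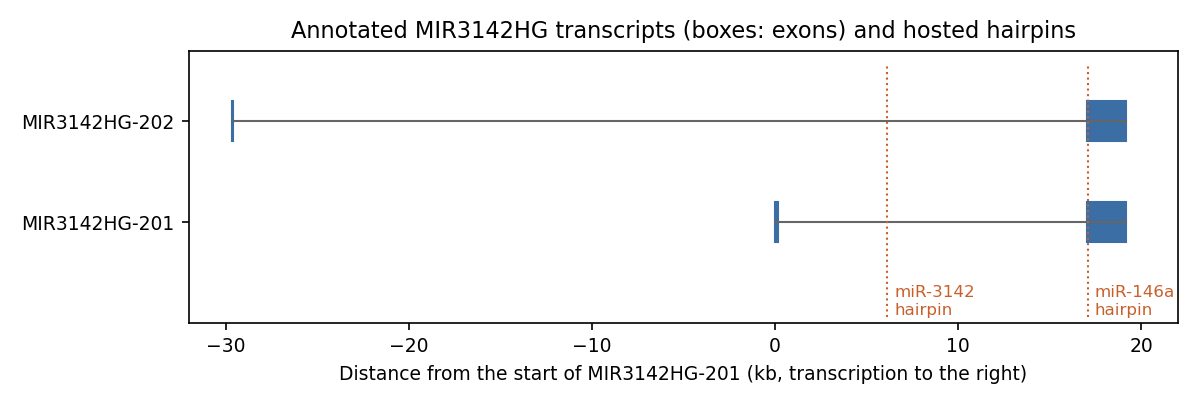
Annotated transcripts of MIR3142HG, with distance in kb from the start of MIR3142HG-201 on the horizontal axis, exons as boxes, introns as lines and the 2 hairpins as dotted lines. The miR-3142 hairpin falls in the intron at 6.13 kb, and the miR-146a hairpin falls in the exon of 2128 bases that both transcripts share.

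The RefSeq promoter window, 250 bases before to 50 bases after the start of the gene, is shown because the gene is known as an NF-κB target, and the capitals mark a match to the κB motif with 2 bases on each side of it. The window matched GRCh37 at chr5:159895008-159895307 on the plus strand, and its start site lies 17 bases upstream of the first base of MIR3142HG-201.
MIR3142HG promoter: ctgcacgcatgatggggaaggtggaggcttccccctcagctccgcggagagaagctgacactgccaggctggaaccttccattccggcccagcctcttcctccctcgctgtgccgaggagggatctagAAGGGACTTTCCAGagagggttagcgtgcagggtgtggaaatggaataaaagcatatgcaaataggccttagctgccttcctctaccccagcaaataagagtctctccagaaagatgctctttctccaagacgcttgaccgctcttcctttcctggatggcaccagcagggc
The degenerate κB consensus, searched on both strands, occurred once, on the plus strand at chr5:159895138-159895147, from 120 to 111 bases before the start. Of 35116 RefSeq promoter windows of the same length, 5.91% held a match to it and 11.3% a match to a wider form that also covers it. The exact 10 bases found here, which are those of the classical κB site of the immunoglobulin kappa enhancer, were in 67 of the windows, or 0.191%. The motif TATAAA, searched in the same way, was not in this window and was in 11.5% of all windows. MicroRNA hosts were taken by name: every gene whose name begins with MIR and ends in HG, with DLEU2 and LINC01138 added. Hosts with other names were not sought. Of the 57 host genes so listed, MIR3142HG included, 43 had a promoter window. These exact 10 bases were in the window of MIR3142HG alone among these 43. With 0.191% of all windows holding them, a further match among 43 was unlikely, so nothing is read from this. The degenerate κB consensus was also in the windows of DLEU2, MIR100HG and MIR7-3HG. A match of letters is a description and not a site shown to be bound.

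The level of MIR3142HG was low in the parent and about an order of magnitude higher in the subline. The values are FPKM, fragments scaled to the length of the transcript and to the mapped reads of the library, and the 4 isoforms were summed. The sum was 0.257 and 0.202 FPKM in the parental libraries. In the MDA-MB-231-P3 libraries it was 2.60 and 2.99 FPKM. The 2 lines did not overlap, and the libraries of each line lay close together. The means were 0.230 ± 0.0386 FPKM in MDA-MB-231 and 2.79 ± 0.272 FPKM in MDA-MB-231-P3 (SD, n = 2 each), a ratio of 12.2. The ratio was 10.1 between the lowest subline and the highest parental library, and 14.8 between the highest subline and the lowest parental library. A level in RNA from many cells cannot tell apart more cells that express a gene and more RNA per expressing cell.

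On the log2(FPKM + 0.5) scale, where changes of low values appear smaller than they are, the difference of the summed level was 2.17, subline minus parent. The 2 parental libraries lay 0.11 apart on this scale and the 2 subline libraries 0.17. The gap between the nearest libraries of different lines was 2.03. The size of the log2 difference depended on the added constant, and was 3.14 with 0.1 FPKM and 1.62 with 1 FPKM. Genes were tested where their mean over the 4 libraries was at least 0.5 FPKM, and MIR3142HG met this minimum through the subline, since its parental mean was lower. Of the 6444 genes tested, 115 had a larger positive log2 difference. Among the 698 tested genes with a parental mean of 0.1 to 0.5 FPKM, which also reached the minimum through the subline, 20 had a larger one. Both subline libraries above both parental libraries was a common pattern, found in 1861 of 6444 tested genes (28.9%), and nothing is read from it for a gene chosen for its difference.

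The summed FPKM of all listed lncRNA isoforms moved with the line. The parental libraries had sums of 460282 and 500086, and the subline libraries had 351135 and 372689. Counts of listed features moved the other way. Isoforms above 0 numbered 52357 and 50931 in the parent and 57477 and 55862 in the subline. Genes at 1 FPKM or more numbered 3916 and 3915 in the parent and 4343 and 4223 in the subline. When MIR3142HG was rescaled to an equal sum in every library, an alternative chosen after the data were examined, its level was 0.235 and 0.170 FPKM in the parent and 3.12 and 3.37 FPKM in the subline, a ratio of 16.0. The rescaling could not have made the lines overlap, because the library sums differed far less than the levels of MIR3142HG did. Nothing is read from it. The log2 difference of MIR3142HG was 2.42 after this rescaling, but 2.09 after median centring and 1.99 after quantile normalization, beside 2.17 without them.

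One isoform made up nearly all of the level in the subline. MIR3142HG:1 had 2.46 and 2.97 FPKM in the MDA-MB-231-P3 libraries, which was 94.5% and 99.5% of the gene's sum. In the parental libraries it had 0.0484 and 0.196 FPKM. Its lines did not overlap either, with means of 0.122 ± 0.104 and 2.71 ± 0.362 FPKM (SD, n = 2 each). It was the 1 isoform of the 4 whose mean over all libraries reached 0.5 FPKM.

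The parental libraries agreed on the sum but not on the isoform that made it up. In parental library 1, MIR3142HG:1 held 18.8% of the sum, MIR3142HG:2 held 41.7% and MIR3142HG:4 held 39.5%. In parental library 2, MIR3142HG:1 held 96.7%. The parental ratio of isoform 1 to the rest was therefore unsettled by these data, while the summed levels of the same libraries were 0.257 and 0.202 FPKM. Such disagreement was common at this level. Among 231 tested genes of 2 or more isoforms with a parental mean of 0.1 to 0.5 FPKM and values above 0 in both parental libraries, the main isoform was the same in both for 58.0%. For the 605 such genes with a subline mean of 2 to 4 FPKM, it was the same in both subline libraries for 66.9%.

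The other 3 isoforms were low in every library. MIR3142HG:4 had 0.101 and 0.00672 FPKM in the parent and 0.103 and 0.0104 FPKM in the subline, so the libraries of a line differed more than the lines. MIR3142HG:2 had 0.107 FPKM in parental library 1, 0.0174 FPKM in subline library 1, and was listed near 0 in parental library 2 and subline library 2. MIR3142HG:3 had 0.0224 and 0.00562 FPKM in the subline and was listed near 0 in both libraries of the parent. Summed, these 3 isoforms had 0.208 and 0.00672 FPKM in the parent and 0.143 and 0.0163 FPKM in the subline, and the lines overlapped. For such low rows only the listed values are given, since a listed 0 need not mean that the isoform is absent.

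**Figure D2:**
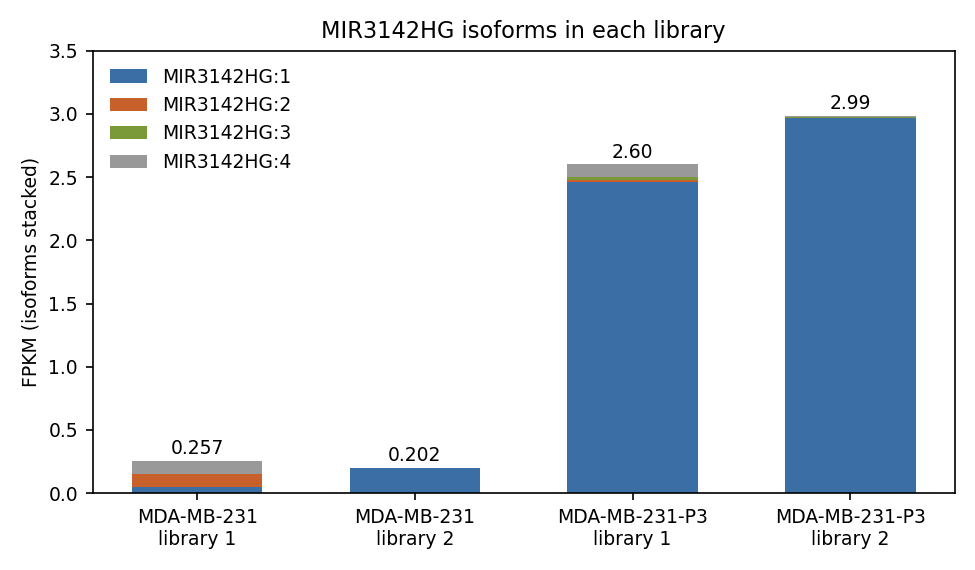
FPKM of the 4 MIR3142HG isoforms, stacked, in each of the 4 libraries, with the sum printed above each bar. MIR3142HG:1 fills nearly all of both subline bars (sums of 2.60 and 2.99), whereas the small parental bars (0.257 and 0.202) differ in which isoform fills them.

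Neighbouring lncRNAs of MIR3142HG were listed at low levels, as most genes of the table were. Of the lncRNAs named for protein-coding genes of the same stretch of chromosome 5, 27 had a row: 12 were named for PTTG1, 5 for GABRB2, 4 for CCNJL and 2 each for ADRA1B, ATP10B and FABP6. A name of this form gives a nearby gene and not a function. None of the 27 reached the minimum mean of 0.5 FPKM, which 86.3% of all 46902 genes also missed. In all 4 libraries 14 of the 27 (51.9%) were listed at 0, against 39.7% of all genes. The protein-coding neighbours themselves have no row in an lncRNA table. The most abundant was lnc-PTTG1-6, singled out after its values were seen, with 0.445 and 0.426 FPKM in the parent and 0.256 and 0.292 FPKM in the subline. It lay lower in both subline libraries. The next, lnc-PTTG1-4, had 0.136 and 0.0996 FPKM in the parent and 0.268 and 0.173 FPKM in the subline.

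Other host genes of microRNAs showed where MIR3142HG stood among genes of its kind. By the naming rule given above, 56 further host genes were listed, 25 of which were tested. Hosts with other names are not counted. Across all 6444 tested genes, limma called 4 at an adjusted p under 0.05 (0.0621%) and, of these 4, 2 were higher and 2 were lower in MDA-MB-231-P3. None of the 25 hosts was among these 4, and 7 of the 25 had an unadjusted p under 0.05, against 978 of the 6444 tested genes. The smallest adjusted p of the hosts was 0.257, for MIR583HG, which is named here after its value was seen. Of the 25, 13 had a positive and 12 a negative log2 difference, and their median was 0.15, beside 0.09 over all genes tested. Both subline libraries lay above both parental ones for 10 of the 25 and below them for 6, against 28.9% and 21.4% of all tested genes. With a minimum of 1 FPKM the median of the hosts was -0.074, so no direction is given for them.

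Ordered by level, MIR3142HG was 24th and 25th of the 57 hosts in the parental libraries, and 19th and 14th in the subline. The log2 difference of MIR3142HG was the highest of the 26 hosts that reached the minimum, itself included. The next was that of MIR193BHG, host of miR-193b and miR-365a, at 1.74 (SE 0.40, limma adjusted p = 0.268), with 0.142 and 0.0134 FPKM in the parent and 1.12 and 1.78 FPKM in the subline. This order depended on the added constant. With 0.1 FPKM, MIR193BHG came first, at 3.19 against 3.14 for MIR3142HG. Its ratio of means was also larger, at 18.6 against 12.2. The most negative was that of MIR3681HG at -0.82 (SE 0.25, limma adjusted p = 0.290), with 69.2 and 61.2 FPKM in the parent and 38.0 and 35.2 FPKM in the subline.

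The hosts of highest level among those listed by name were far above MIR3142HG in both lines. MIR17HG, host of the miR-17-92 cluster known for promoting growth, had 33.6 and 30.4 FPKM in the parent and 34.7 and 41.5 FPKM in the subline (log2 difference 0.24, SE 0.26, limma adjusted p = 0.662). MIR4435-2HG had 185 and 192 FPKM in the parent and 119 and 147 FPKM in the subline (log2 difference -0.51, SE 0.27, limma adjusted p = 0.439), and its values are uncertain because CYTOR is a near-identical copy. MIR663AHG had 6241 and 10760.5 FPKM in the parent and 8337 and 10322 FPKM in the subline, and its libraries overlapped between the lines. MIR155HG, host of miR-155 and like MIR3142HG a known NF-κB target, was low throughout. Its parental libraries had 0.0747 and 0.00139 FPKM and its subline libraries 0.0783 and 0.0240 FPKM, so its lines overlapped.

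**Figure D3:**
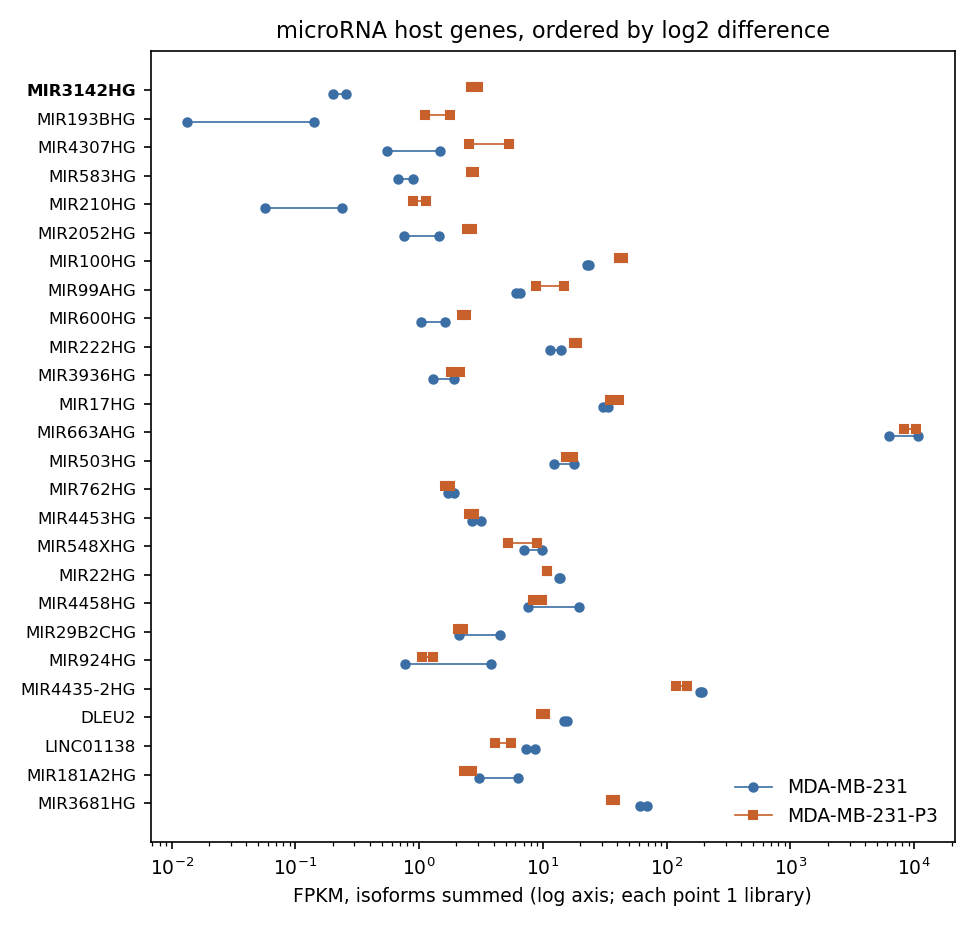
Summed FPKM on a log axis for the 26 microRNA host genes, listed by name, that reached the minimum, ordered by log2 difference. Each library is 1 point, with circles for MDA-MB-231 and squares for MDA-MB-231-P3. MIR3142HG is at the top, with parental points at 0.257 and 0.202 and subline points at 2.60 and 2.99.

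Further lncRNAs, put on a hand-made list for a link to NF-κB or inflammation, had differences of both signs. None was called, where 4 of all 6444 tested genes (0.0621%) were, so nothing is read from the lack of calls. Of 24 listed by name, 21 had a row and 13 were tested, of which 3 had an unadjusted p under 0.05. Of the 13, 7 had a positive and 6 a negative log2 difference, with a median of 0.18 beside 0.09 over all tested genes. With a minimum of 1 FPKM the median of this list was -0.0019, so no direction is given. Both subline libraries lay above both parental ones for 5 of the 13 and below for 3, where 28.9% and 21.4% of all tested genes did so, and 978 of all 6444 had an unadjusted p under 0.05. The most positive was MIR210HG, host of the hypoxia-induced miR-210, which had 0.240 and 0.0573 FPKM in the parent and 1.13 and 0.884 FPKM in the subline (log2 difference 1.23, SE 0.40, limma adjusted p = 0.304). The most negative was SNHG15, a host of a small nucleolar RNA, which had 103 and 99.8 FPKM in the parent and 57.2 and 45.7 FPKM in the subline (log2 difference -0.98, SE 0.27, limma adjusted p = 0.272). MIR210HG also belongs to the microRNA hosts, so the lists are not separate samples of genes. The hand-made list is not an established class, and the response of its members to NF-κB in these lines was not tested.

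Abundant members of this list were MALAT1, GAS5 and NEAT1. The log2 difference was 1.11 (SE 0.32, limma adjusted p = 0.282) for MALAT1, which is retained in the nucleus. It was 0.22 (SE 0.28, limma adjusted p = 0.699) for GAS5, a host of small nucleolar RNAs, and 0.25 (SE 0.35, limma adjusted p = 0.743) for NEAT1, the scaffold of nuclear paraspeckles. NKILA, an lncRNA known to be induced by NF-κB and to restrain it, did not reach the minimum. It had 0.524 and 0.669 FPKM in the parent and 0.426 and 0.276 FPKM in the subline, lower in both. PACERR, an antisense lncRNA next to the NF-κB target PTGS2, also stayed under the minimum, with 0.347 and 0.0748 FPKM in the parent and 0.571 and 0.364 FPKM in the subline, higher in both. These 2 and MIR155HG were picked after their values were seen, for their known ties to NF-κB.

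Of 92 lncRNAs named for genes of the NF-κB pathway, 9 were tested, none of which was called, and 1 had an unadjusted p under 0.05. Over all 6444 tested genes, 4 (0.0621%) were called and 978 had an unadjusted p under 0.05, so nothing is read from these counts. The other 83 of the 92 (90.2%) were under the minimum, close to the 86.3% of all genes. Of the 9, 6 had a positive and 3 a negative difference, with a median of 0.35. This median was -0.32 over the 4 that reached 1 FPKM, so no direction is given. The most abundant, lnc-CXCL2-1, had 5.48 and 7.49 FPKM in the parent and 9.15 and 8.49 FPKM in the subline (log2 difference 0.43, SE 0.28, limma adjusted p = 0.521). The level of lnc-IL6-3 was 3.44 and 2.92 FPKM in the parent and 1.54 and 1.35 FPKM in the subline (log2 difference -0.92, SE 0.26, limma adjusted p = 0.282), while lnc-IL6-12 had 1.64 and 2.16 FPKM in the parent and 3.05 and 1.84 FPKM in the subline. The extremes of the list each rested on a single library. Subline library 1 gave 2.28 FPKM for lnc-CCL2-9 and parental library 2 gave 4.24 FPKM for lnc-REL-5, each against values listed at or near 0 in the other 3 libraries.

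**Figure D4:**
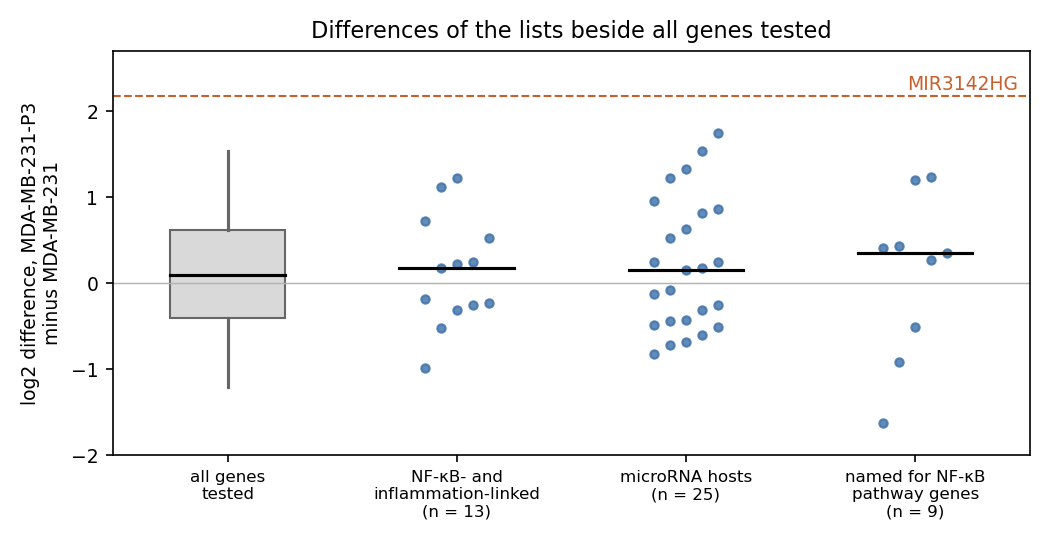
Log2 difference, subline minus parent, on the log2(FPKM + 0.5) scale, for all tested genes (box from the 25th to the 75th percentile, line at the median, whiskers to the 5th and 95th) and for each tested member of 3 lists (points, with the median as a line). The dashed line marks MIR3142HG at 2.17, and the medians of the lists are 0.18, 0.15 and 0.35 beside 0.09 for all genes.

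The genes whose profile lay closest to that of MIR3142HG were found by the Euclidean distance between log2(FPKM + 0.5) values, centred on each gene's mean, over the 4 libraries and among 6443 other tested genes. The closest was PIK3CD-AS2, an antisense lncRNA of the PIK3CD locus, at a distance of 0.095, with 0.946 and 0.905 FPKM in the parent and 5.89 and 6.75 FPKM in the subline. It was followed by lnc-MASTL-4 (distance 0.13), lnc-DAPK3-3 (0.14) and lnc-IRAK3-4 (0.15). These 3 were listed at or near 0 in both parental libraries and at 1.52 to 2.09 FPKM in the subline libraries. The log2 difference of lnc-IRAK3-4, whose neighbour IRAK3 was not among the pathway genes listed, was 2.30. Of these 4 genes, PIK3CD-AS2 alone had a measurable level in the parent, as MIR3142HG did. With 4 libraries in 2 groups, many genes that differ by a similar amount have a similar profile, so the likeness is a description only.

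**Figure D5:**
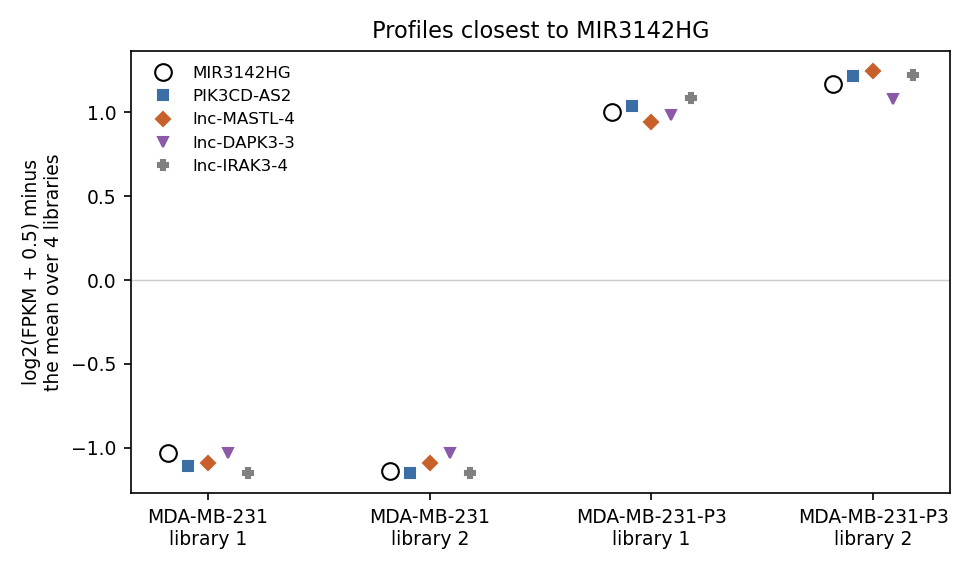
Centred log2(FPKM + 0.5) of MIR3142HG (open circles) and of 4 of its closest genes in each library, with points of a library set side by side. All 5 genes lie near -1 in both parental libraries and near 1 in both subline libraries.

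The lncRNA table holds no protein-coding markers of cell type, so the labels were compared with lncRNAs. Summed markers of luminal breast cells (3 of 3 with a row, DSCAM-AS1 at or near 0) were at 0.0179 to 0.0403 FPKM over the 4 libraries, and the epithelial hosts MIR200CHG and MIR205HG summed to at most 0.244 FPKM. Mesenchymal or basal breast lncRNAs (3 of 4 with a row) summed to 26.8 and 25.2 FPKM in the parent and 46.6 and 44.1 FPKM in the subline. Most of this sum, and its higher level in the subline, was that of MIR100HG alone. AFAP1-AS1 had 3.19 and 2.43 FPKM in the parent and 2.33 and 2.72 FPKM in the subline, and MIR31HG had at most 0.143 FPKM. Because MIR3142HG is also known from leukocytes, leukocyte lncRNAs were summed: 2 of 5 had a row, LINC00861 was at or near 0 in all libraries, and their sum was 0.324 and 1.07 FPKM in the parent and 1.05 and 0.859 FPKM in the subline. Nearly all of that sum was LINC00926, and the part of such cells in the level of MIR3142HG was not tested.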

How the data were processed

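Strand-specific paired-end libraries (reads of 150 bases) were made from the mRNA fraction of 2 cell lines, 2 libraries each. The authors aligned reads to hg19 with HISAT2 and deposited FPKM values per lncRNA isoform, per the labels' protocols, and the submitters' processing notes also name StringTie. For versions, lncRNA annotation and isoform assignment, the record is "not given in the sources used here". Each library's own file held the same 104786 values as the series table. Depth is unknown, so no counting error is given.

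Isoforms were summed per gene by name. The test was limma's (version 3.58.1, R 4.3.3) on log2(FPKM + 0.5) for features with a mean of at least 0.5 FPKM. It was two-sided with an intensity trend, with Benjamini-Hochberg adjustment over all features tested and a threshold of 0.05. A check on simulated data was run first, with log2 changes of 2 and more only. Every named difference given here with a p-value was smaller, so the check does not bear on those. Named genes were all MIR3142HG isoforms, the 4 most abundant and the 2 extreme tested members of each list, the 5 closest profiles (1 of which is not reported here) and the markers. MIR3142HG and the lists were chosen with earlier results of these data known. Sequences came from RefSeq (GRCh38.p14) and were placed on GRCh37 by exact match. Alternatives were pseudocounts of 0.1 and 1, no minimum or 1 FPKM, quantile normalization, centring, no trend, a replicate block and leaving out each library. Python 3.11.15, numpy 2.4.6, pandas 2.3.3 and matplotlib 3.10.9 were used.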

Additional observations from a re-analysis of the deposited data

How the results depend on the processing

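MIR3142HG stayed higher in the subline under every alternative run for it. Changed pseudocounts and left-out libraries could not turn this direction, because its lines did not overlap. Nor could the rescaling, because the library sums differed far less than its levels did. Nothing is read from this direction, as MIR3142HG was chosen with its difference known. Its log2 difference of 2.17 was 3.14 and 1.62 with pseudocounts of 0.1 and 1, 1.99 after quantile normalization, 2.38 for its most abundant isoform alone, 2.42 after rescaling to equal summed FPKM, and 2.09 to 2.26 without single libraries. Low isoforms changed sign without single libraries: MIR3142HG:2 ranged from -0.25 to 0.025 and MIR3142HG:4 from -0.12 to 0.13. The 4 called genes fell to 0 with a pseudocount of 1, no minimum, no trend or any library left out (0 to 0), and to 2 after quantile normalization; 0 isoforms were called (1124 had an unadjusted p under 0.05), and 6 with a minimum of 1 FPKM. That minimum turned the medians of the lists to -0.0019 (NF-κB- and inflammation-linked), -0.074 (hosts) and -0.32 (pathway names). The median of the hosts was 0.066 with centring, 0.046 without a minimum and 0.034 to 0.24 without single libraries. Uncalled genes that changed sign without single libraries were MIR663AHG (-0.21 to 0.57), NEAT1 (-0.035 to 0.53) and lnc-IL6-12 (-0.028 to 0.57). For all of these, the cause was not tested. Where a line is left with 1 library, its spread is taken from the other line.

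With the replicate number as a block, 0 genes and 0 isoforms were called, against 4 and 0. Same-numbered libraries share only a number, and the correlation of their deviations across genes was 0.078.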
